A study of Homo sapiens with 12 samples.

Results

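NQO1, GCLM, GCLC, TXNRD1, SRXN1, SLC7A11, HMOX1 and ME1 are 8 target genes of the transcription factor NFE2L2 (NRF2). Around them, H3K27ac (histone H3 acetylated at lysine 27), which marks promoters and enhancers in use, was followed in human cancer cell lines. The peaks described are those, on the hg19 build, within 50 kb of 8 fixed gene spans. The 8 lists from cells without a vector label held 250 such peaks of 224362 in all. Peaks of different libraries that overlapped by at least 1 bp were joined into regions, and 63 of 70648 regions touched the windows of these genes. The rule uses positions and no peak values.

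The series assayed 12 libraries of established lines, all labelled as given no treatment and grown in RPMI with serum. The lung adenocarcinoma lines NCI-H358 and NCI-H2009 and the endometrial carcinoma line Ishikawa had 2 libraries each. HCC95, a squamous lung carcinoma line, and BICR31 had 1 each. The sample label of BICR31 reads lung adenocarcinoma while the series' design text names it as a head and neck squamous line, and the design text was followed. A further 4 libraries of H2009 are labelled Empty, Control, e3KRAB1 and e3KRAB2, terms the labels do not expand, with 1 library each. The labels do not say that replicates were separate cultures.

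NFE2L2 is held in the cytoplasm and marked for degradation by KEAP1. When oxidants or electrophiles modify KEAP1, NFE2L2 reaches the nucleus, pairs with a small MAF protein and binds antioxidant response elements in DNA. Its targets make and recycle glutathione, feed the thioredoxin system, reduce quinones, break down heme and supply NADPH, and mutations that keep NFE2L2 active are well known in squamous lung and head and neck cancers. The mutation state of KEAP1 and NFE2L2 in these lines was not analysed here.

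The promoters were searched for the letters that NFE2L2 is known to read. A window of 250 bases before to 50 after the start was available from RefSeq (GRCh38.p14) for 6 of the 8 genes, with 7 starts because TXNRD1 has 2; SLC7A11 and HMOX1 are the others. The core letters of the antioxidant response element, TGACNNNGC, were searched on both strands and were found at 4 of the 7 starts (GCLM, both of TXNRD1 and ME1, and none of NQO1, GCLC or SRXN1), beside 13.3% of 35116 promoters in the table. The stretches before those 4 starts are printed because they show where in each promoter the element lies. They run 5′ to 3′ on the gene's strand and end at the base before the start, and capitals mark a match that lies wholly before the start.
GCLM: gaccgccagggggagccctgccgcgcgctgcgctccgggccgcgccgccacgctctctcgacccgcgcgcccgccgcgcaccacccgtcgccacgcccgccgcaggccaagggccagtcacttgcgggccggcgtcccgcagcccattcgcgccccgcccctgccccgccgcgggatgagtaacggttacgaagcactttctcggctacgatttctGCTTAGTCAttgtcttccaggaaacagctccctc
TXNRD1 first start: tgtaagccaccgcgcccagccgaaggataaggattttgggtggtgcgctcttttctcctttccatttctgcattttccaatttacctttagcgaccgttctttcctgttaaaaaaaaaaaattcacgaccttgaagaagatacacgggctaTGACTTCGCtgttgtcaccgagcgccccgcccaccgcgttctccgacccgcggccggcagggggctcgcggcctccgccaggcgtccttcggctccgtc
TXNRD1 second start: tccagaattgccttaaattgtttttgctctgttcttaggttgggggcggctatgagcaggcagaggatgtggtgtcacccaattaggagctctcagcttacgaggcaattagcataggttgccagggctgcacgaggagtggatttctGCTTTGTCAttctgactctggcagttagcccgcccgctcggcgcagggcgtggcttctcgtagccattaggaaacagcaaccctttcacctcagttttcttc
ME1: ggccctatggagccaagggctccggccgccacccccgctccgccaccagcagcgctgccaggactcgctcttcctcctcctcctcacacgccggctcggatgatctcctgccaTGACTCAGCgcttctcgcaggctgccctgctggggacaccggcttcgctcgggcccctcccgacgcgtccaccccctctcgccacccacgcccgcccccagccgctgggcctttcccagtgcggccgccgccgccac
In GCLM and at the second TXNRD1 start the capitals are the reverse complement of the searched letters, which read TGACTAAGC and TGACAAAGC on the other strand. In ME1 the match is TGACTCAGC, which also fits TGANTCAGC and so contains TGANTCA, the letters of the AP-1 site. TGANTCAGC was found at 1 of the 7 starts beside 1.36% of all promoters, and TGANTCA at the same 1 of 7 beside 7.71%. The first TXNRD1 start had a further TGACNNNGC match that reached onto the start, and ME1 had a further match that lay wholly after its start. A list of 26 other genes of the pathway had 20 in the table, with 28 starts. TGACNNNGC was found at 6 of these 28 starts, in PGD, GPX2, CBR1, EPHX1, PIR and KEAP1. TGANTCAGC was found at 2 of the 28, in OSGIN1 and PIR. A match describes letters and is not a measured binding site, and the window is short, so elements farther out are not covered.

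Deposited lists differed in form and breadth, which bears on every comparison between lines. The H358 and H2009 lists were narrowPeak tables with median peak widths of 347 to 382 bp and 10.9 to 12 Mb called in all. The HCC95 and BICR31 lists were broadPeak tables with 21.4 and 40.6 Mb called, and the Ishikawa lists were 5-column tables with 41.4 and 32.5 Mb. Form moved with the type of line, so form and type cannot be told apart. To allow for breadth in part, called bases were divided by the size of the window (per 100 kb) and by the bases called in the whole list (per Mb), a quantity named relative called bases here. Peak values are the authors' own: a fold enrichment in the narrowPeak and broadPeak lists and a score in the Ishikawa lists, and ranks are given from the top of the same list. No read numbers come with these lists, so sequencing depth is unknown. A place without a peak means only that no peak was listed there.

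**Figure D1:**
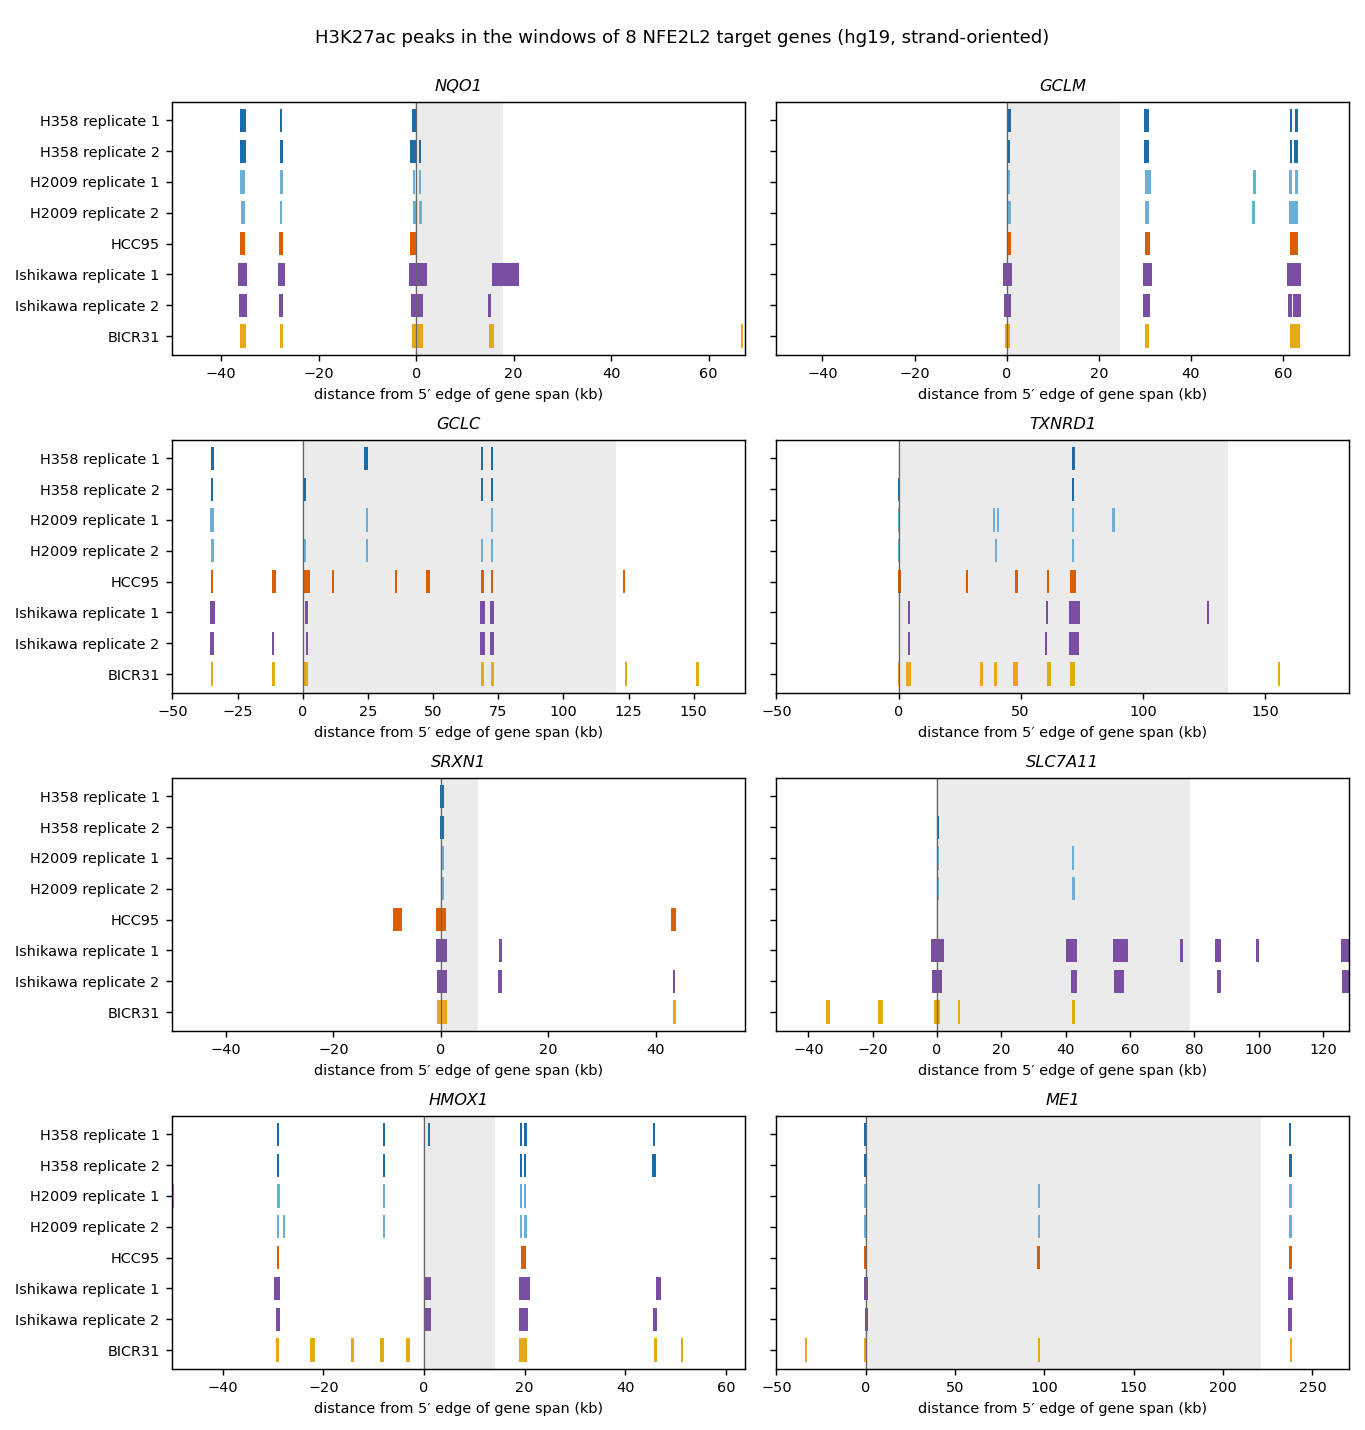
Peaks of the 8 libraries in the windows of the 8 genes, 1 row per library, with distance from the 5′ edge of the gene span in kb on the horizontal axis. Bars are deposited peaks, negative distances are upstream, and 14 of the 63 regions had a peak in all 8 rows.

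Acetylation at the 5′ edge of the gene span was shared by every library at NQO1, GCLM, SRXN1 and ME1. A peak within 1 kb of the edge was listed in 8 of 8 libraries for these 4 genes, in 6 for SLC7A11, in 5 for GCLC, in 5 for TXNRD1 and in 3 for HMOX1. At GCLC and TXNRD1 the edge used may not be the only start, or the main one, as described below. With only the higher-valued 50% of each list, GCLM alone kept an edge peak in all 8, SRXN1 had 7 libraries, ME1 6, SLC7A11 4, NQO1 2, GCLC 2, HMOX1 1 and TXNRD1 0. The 8 regions at the edges had a median of 7 libraries and a median width of 2342 bp. The 55 regions away from the edges had a median of 2 libraries and 1080 bp. Because a region joins the peaks of its libraries, width is tied to their number. Genome-wide, the median was 2150 bp for regions in all 8 libraries and 855 bp for all regions.

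**Figure D2:**
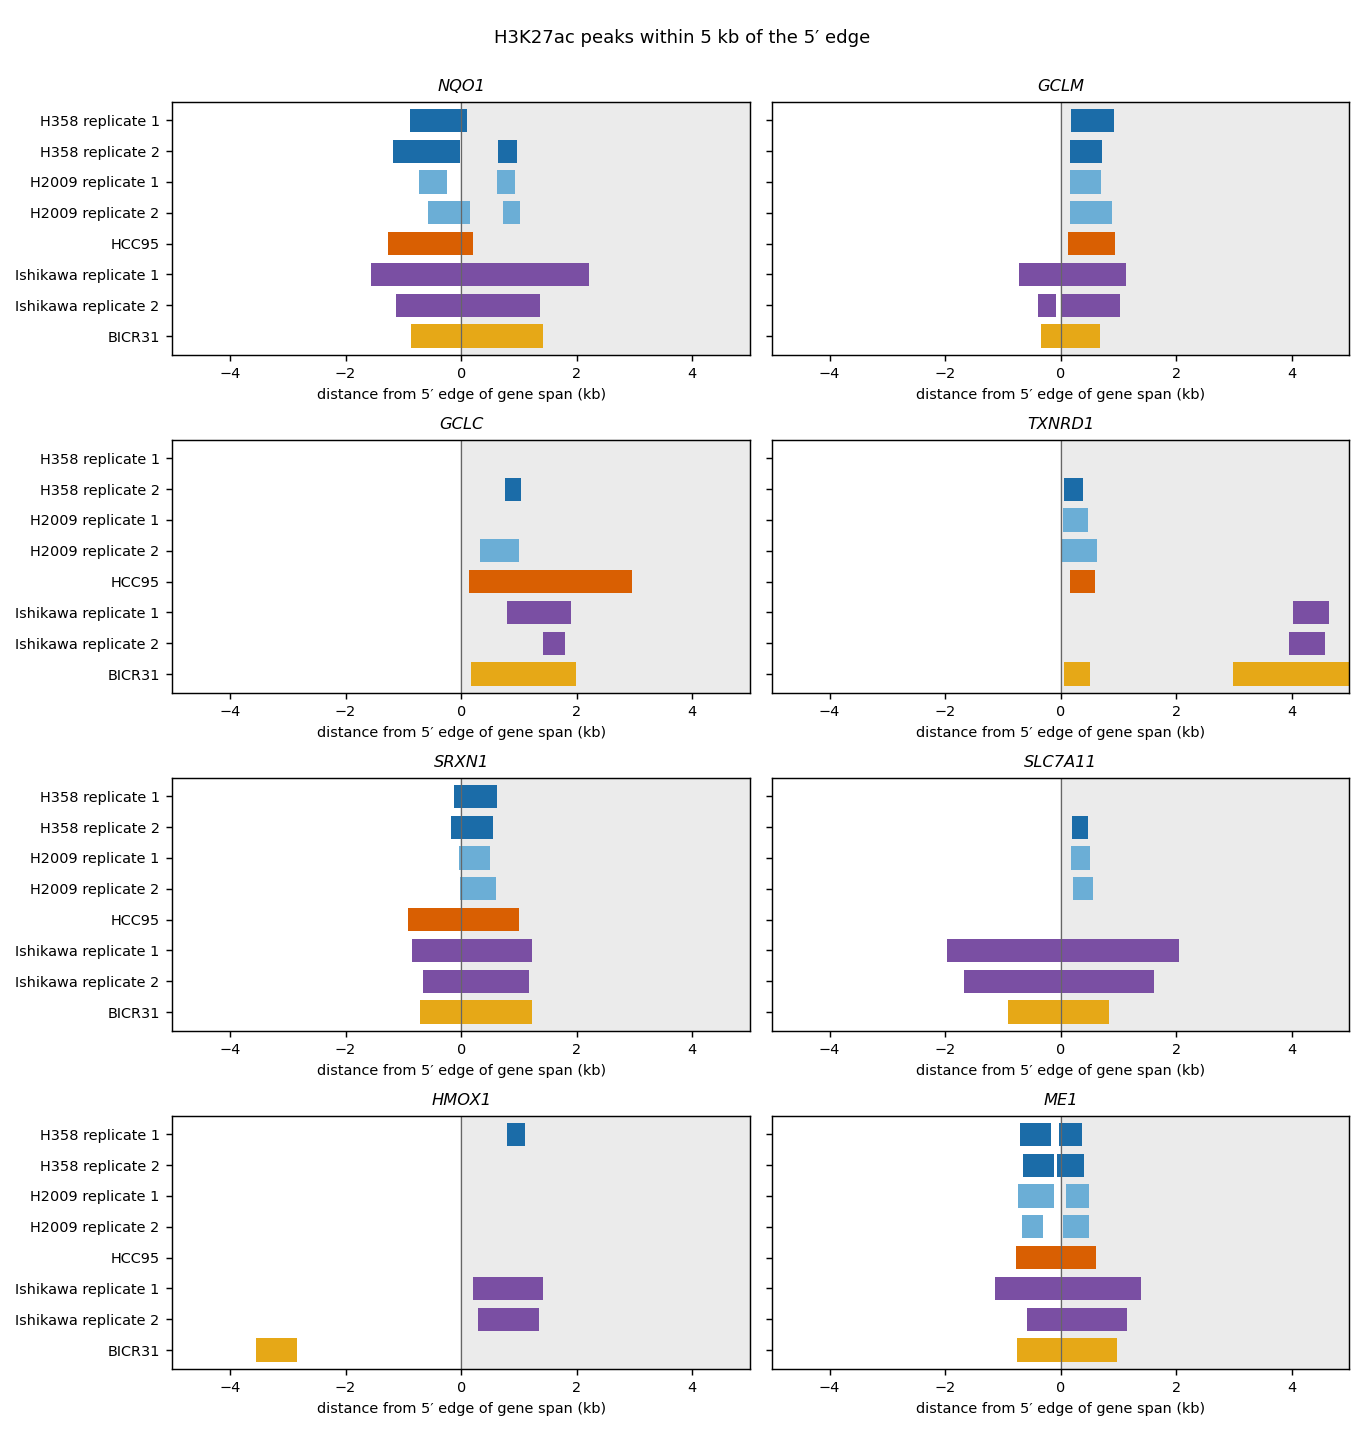
Peaks within 5 kb of the 5′ edge of each gene span, 1 row per library, with distance in kb on the horizontal axis. GCLM, NQO1, SRXN1 and ME1 have a peak within 1 kb in all 8 rows, and HMOX1 in 3.

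Glutathione synthesis starts with cystine import by SLC7A11, the light chain of the cystine/glutamate antiporter. The SLC7A11 window (span 4:139085251-139163503, minus strand) ranged from no peak to 7 peaks. Called bases were 0 in H358 replicate 1, 273 in H358 replicate 2, 673 and 676 in the H2009 replicates, 0 in HCC95, 18623 and 11954 in the Ishikawa replicates and 5996 in BICR31. Both Ishikawa libraries lay above the other 6, and the H358 and HCC95 libraries lay lowest. Relative called bases were 229 ± 32.3 (SD, n = 2) in Ishikawa, 82.8 in BICR31, 34.0 ± 1.16 (SD, n = 2) in H2009, 6.36 ± 9.0 (SD, n = 2) in H358 and 0 in HCC95. In the higher-valued 50% of each list Ishikawa still led, at 114 against 76.9 in BICR31. In Ishikawa the edge peak was 4015 and 3277 bp wide with scores of 332 and 458, at 15.8% and 6.99% from the top of the lists. In the narrowPeak lists it was 273 to 349 bp wide, with a fold of 4.57 in H358 replicate 2 and of 6.11 and 4.10 in the H2009 replicates, and BICR31 had a fold of 4.53 over 1750 bp. The nearest peak to the edge lay 197 kb away in HCC95 and 105 kb away in H358 replicate 1. HCC95 had 3.88% of its peaks on chromosome 4, where the other 7 lists had 4.54% to 5.27%; the part of chromosome-wide coverage in the missing SLC7A11 peak was not tested.

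Inside and beyond SLC7A11, the Ishikawa lists held wide, low-ranked regions that no other line listed. The widest region of the window, 4:139031622-139037751, is 6130 bp wide, reaches past the 50 kb limit and was listed in both Ishikawa libraries alone, with scores of 65.3 and 73.6. Regions at 4:139075059-139077089 and, inside the gene, 4:139104253-139108846 were also listed in both Ishikawa libraries alone. A region 40.2 kb inside the span, 4:139119830-139123344, was shared by both H2009 libraries (folds 4.46 and 5.05), both Ishikawa libraries (scores 128 and 217) and BICR31 (fold 4.07). The scores of the 3 regions listed in both Ishikawa libraries alone were 51.7 to 73.6, low beside the 332 and 458 at the edge. Their peaks lay at 78.8% to 98.1% from the top of the lists, so none was in the higher-valued 50%.

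GCLC and GCLM are the catalytic and modifier subunits of glutamate-cysteine ligase, which makes the first committed step of glutathione synthesis. At GCLM (span 1:94350755-94375157, minus strand) called bases were 2738 and 2955 in H358, 3162 and 3821 in H2009, 6832 and 5757 in the Ishikawa replicates, 3574 in HCC95 and 4019 in BICR31. Relative called bases were highest in H2009 at 251 ± 24.2 (SD, n = 2), then 192 ± 7.30 in H358 (SD, n = 2), 138 ± 7.01 in Ishikawa (SD, n = 2), 134 in HCC95 and 79.5 in BICR31. The HCC95 value lies within the spread of the Ishikawa replicates. Without division by list size, Ishikawa led instead, at a mean of 6295 called bases against 4019 in BICR31.

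The highest GCLM edge peak lay wholly inside the gene span in 6 of the 8 libraries, the exceptions being Ishikawa replicate 1 and BICR31. It began 128 to 184 bp downstream of the edge in the 4 narrowPeak lists and in HCC95, and these 5 libraries had 0 called bases in the 2 kb upstream. Its folds were 7.78 and 6.29 in H358, 7.96 and 5.29 in H2009, 3.86 in BICR31 and 4.55 in HCC95, and its scores were 232 and 234 in Ishikawa. In H2009 replicate 1 it ranked at 6.43% from the top of the list. The edge region, 1:94374029-94375883, was joined by 2 more with a peak in all 8 libraries, 1:94343576-94345622 and the widest of the window, 1:94311187-94314198 (3012 bp), 61.0 kb from the edge. A region of 845 bp at 1:94321138-94321982 was listed in both H2009 libraries and in no other, with folds of 7.40 and 7.21 at 10.3% and 12% from the top. The gene next to GCLM on the downstream side in the RefSeq order is DNTTIP2 and on the upstream side ABCA4.

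At GCLC (span 6:53362139-53481968, minus strand) HCC95 stood above the other lines. Called bases were 1912 and 1938 in H358, 2034 and 2124 in H2009, 6281 and 5218 in the Ishikawa replicates, 10277 in HCC95 and 7605 in BICR31. Relative called bases were 218 in HCC95, and 73.6 ± 0.471 (SD, n = 2) in H358, 84.9 ± 0.566 (SD, n = 2) in H2009, 71.1 ± 2.91 (SD, n = 2) in Ishikawa and 85.2 in BICR31. The other 4 lines lay close together, and HCC95 has no replicate to give its spread. In the higher-valued 50% of each list the lead of HCC95 was lost, with 85.6 in BICR31 and 85.0 in H358 as the top values. HCC95 alone had regions at 6:53433258-53434633, 6:53445708-53446496 and 6:53469885-53470721 inside the span and at 6:53358451-53358742 beyond it.

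The GCLC regions with a peak in every library lay away from the edge of the span used. A region 71.8 kb inside the span, 6:53408571-53410134, had a peak in all 8 libraries, with folds of 5.50 and 5.69 in H358, 4.35 and 4.95 in H2009, 4.09 in BICR31 and 3.53 in HCC95 and scores of 129 and 132 in Ishikawa. Its neighbour 6:53411922-53413804 lacked a peak only in H2009 replicate 1. The edge region, 6:53479004-53481824, is the widest of the window at 2821 bp, the width of its HCC95 peak. The span used is 119830 bp long, while RefSeq's GCLC model spans 47761 bp, and the region shared by all 8 lies 46.4 to 48.0 kb from the 3′ edge. These lengths are from different builds and were not placed on each other, so the edge used for GCLC, and with it the count of 5 of 8 libraries, may not be that of the gene's main start. The region at -33.8 kb, 6:53515809-53517637, was also shared by all 8.

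The thioredoxin branch holds TXNRD1, thioredoxin reductase, which reduces thioredoxin with NADPH, and SRXN1, sulfiredoxin, which restores overoxidised peroxiredoxins. At TXNRD1 (span 12:104609557-104744085, plus strand) the narrowPeak lists were sparse. Called bases were 608 and 705 in H358, 1510 and 1179 in H2009, 6845 and 5066 in the Ishikawa replicates, 5123 in HCC95 and 10153 in BICR31. Relative called bases ran from 23.5 ± 2.08 (SD, n = 2) in H358 and 51.6 ± 10.9 in H2009 (SD, n = 2) to 68.5 ± 2.79 in Ishikawa (SD, n = 2), 102 in HCC95 and 107 in BICR31. The 2 lines in broadPeak form were highest and H358 lowest. With lists cut to equal length HCC95 led at 102, and BICR31 had 68.8. In the higher-valued 50% Ishikawa led instead, at 79.0 against 76.4 in BICR31, and the called share of the window in HCC95 went from 2.18% to 0.174%.

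The TXNRD1 region with a peak in every library was not at the edge but 69.6 to 74.1 kb inside the span. This region, 12:104679159-104683648, is the widest of the window. Its highest peak was 263 to 366 bp wide in the narrowPeak lists, with folds of 4.19 and 5.40 in H358 and 3.72 and 2.89 in H2009. In Ishikawa the peak was 4490 and 4119 bp wide with scores of 312 and 426, and HCC95 and BICR31 had folds of 2.22 and 3.08. The 2 TXNRD1 starts in the RefSeq table are 71253 bp apart on their own build. That distance falls within the 69.6 to 74.1 kb of the region shared by all 8, though the builds were not placed on each other. The count of 5 of 8 libraries at the edge may therefore not cover both starts. The edge region itself, 12:104609557-104610193, had folds of 5.18 in H358 replicate 2, 5.01 and 4.16 in H2009, 2.57 in BICR31 and 2.18 in HCC95, and no peak within 1 kb in H358 replicate 1 or in Ishikawa. From the top, these edge peaks lay at 54.9% in H358 replicate 2, 58.0% and 85.0% in H2009, 98.8% in BICR31 and 99.7% in HCC95. Their folds were above those of the region shared by all 8 in both H2009 libraries. They were below them in H358 replicate 2, HCC95 and BICR31. The nearest peaks to the edge in Ishikawa, 4.02 and 3.96 kb inside, belong to a region shared only with BICR31, 12:104612550-104614765. A region shared by HCC95 and BICR31 alone, 12:104656438-104658335, is 1898 bp wide with folds of 3.18 and 3.83; it was the only one of the 63 with peaks in just these 2 squamous lines.

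SRXN1 has the shortest span of the 8 genes (20:627268-634014, minus strand), and its edge peak crossed the 5′ edge in all 8 libraries. The edge region, 20:632783-634934, is also the widest of its window at 2152 bp. Folds there were 8.56 and 6.94 in H358, 7.05 and 7.48 in H2009, 4.22 in BICR31 and 3.22 in HCC95, and scores were 272 and 420 in Ishikawa. These peaks lay at 5.84% to 18.8% from the top of the narrowPeak lists and at 83.2% in HCC95. Relative called bases nevertheless were highest in HCC95 at 193, followed by 72.6 ± 17.4 (SD, n = 2) in Ishikawa, 58.2 ± 1.87 (SD, n = 2) in H358, 53.2 in BICR31 and 48.8 ± 3.53 (SD, n = 2) in H2009. HCC95 called 4408 bases in the window, of which 1928 lay in the edge peak and 1626 in a peak at 20:641324-642949 that no other library had. In the higher-valued 50% H358 was highest at 99.3, with Ishikawa at 96.6. The called share of the window in HCC95 went from 4.13% to 0 there. A region listed in both Ishikawa libraries alone, 20:622523-623330, is 808 bp wide with scores of 65.0 and 155.

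NQO1, a quinone reductase, is among the most used readouts of NFE2L2 activity. Its window (span 16:69743304-69760854, minus strand) held 2147 and 2965 called bases in H358, 2221 and 2315 in H2009, 12693 and 5696 in the Ishikawa replicates, 3280 in HCC95 and 5672 in BICR31. Relative called bases were 205 ± 78.8 (SD, n = 2) in Ishikawa, 182 ± 38.4 (SD, n = 2) in H358, 173 ± 1.38 (SD, n = 2) in H2009, 119 in BICR31 and 130 in HCC95. The order of Ishikawa, H358 and H2009 is within the spread of the replicates: without Ishikawa replicate 1 the highest mean was 182 in H358, and without H358 replicate 1 it was 210 in H358.

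The NQO1 edge peak ranked low in each narrowPeak list. Its folds were 4.77 and 4.08 in H358 and 4.09 and 3.62 in H2009, at 66.3% to 95.2% from the top of these lists. The fold was 3.34 in HCC95 and 3.59 in BICR31, and Ishikawa had scores of 266 and 396 at 26.2% and 12.1% from the top. In H358 replicate 2 and both H2009 libraries a second peak followed inside the gene, after a gap of 578 to 864 bp. The edge region, 16:69758633-69762409, is 3777 bp wide.

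Peaks upstream of NQO1 had higher folds than the one at its edge. The region at -27.0 kb, 16:69787830-69789238, had folds of 9.79 and 7.75 in H358, 7.94 and 9.45 in H2009, 9.27 in BICR31 and 5.65 in HCC95, and scores of 294 and 360 in Ishikawa. The fold was above that at the edge in all 6 lists that give one, and in BICR31 the peak ranked 20 of 42148. The region at -34.7 kb, 16:69795546-69797487, also had a peak in all 8 libraries. NOB1 is the next gene on this side in the RefSeq order, and which gene these regions serve was not measured. The widest region of the window, 16:69739790-69746197, covers 6408 bp at the 3′ end of the gene and was listed only in Ishikawa and BICR31. It joins peaks of 5565 bp in Ishikawa replicate 1, 675 bp in Ishikawa replicate 2 and 1070 bp in BICR31. The Ishikawa peaks do not overlap each other and are joined only through the BICR31 peak. Their scores were 58.8 and 65.4, at 90.2% and 85.0% from the top of the lists.

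HMOX1, heme oxygenase-1, breaks down heme and is also under the repressor BACH1. Its edge (span 22:35776354-35790207, plus strand) had the fewest peaks of the 8 genes. An edge peak was listed in H358 replicate 1 with a fold of 5.70 over 313 bp and in the Ishikawa replicates with scores of 86.6 and 101 over 1215 and 1065 bp. H358 replicate 2, both H2009 libraries, HCC95 and BICR31 had none within 1 kb, so the H358 replicates differed here. At -7.8 kb, 22:35767510-35768551, both H358 libraries (folds 6.51 and 6.75), both H2009 libraries (5.42 and 5.38) and BICR31 (4.24) had a peak, and Ishikawa and HCC95 had none.

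The HMOX1 window held 11 regions, of which 2 were shared by all libraries and 6 were listed in 1 library. Those at -28.6 kb, 22:35746453-35747729, and 18.8 kb, 22:35795121-35797367, were the 2 found in every library. At -28.6 kb the folds were 8.44 and 8.59 in H358, 4.03 and 5.42 in H2009, 6.85 in BICR31 and 3.26 in HCC95. Called bases in the window were 2543 and 2278 in H358, 1894 and 1759 in H2009, 5759 and 4266 in the Ishikawa replicates, 1396 in HCC95 and 6174 in BICR31. Relative called bases were 178 ± 16.7 (SD, n = 2) in H358, 144 ± 12.9 (SD, n = 2) in H2009, 134 in BICR31, 119 ± 4.77 (SD, n = 2) in Ishikawa and 57.2 in HCC95. With a flank of 100 kb BICR31 led at 140 against 123 in H358. TOM1 lies next to HMOX1 on the upstream side and MCM5 on the downstream side in the RefSeq order.

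ME1, malic enzyme, makes NADPH in the cytosol. It has the longest span of the 8 genes (6:83920110-84140790, minus strand) and among the lowest relative called bases. These were 58.0 ± 6.67 (SD, n = 2) in H2009, 44.4 in HCC95, 43.2 ± 8.85 (SD, n = 2) in H358, 38.7 ± 1.63 (SD, n = 2) in Ishikawa and 31.7 in BICR31. Called bases were 1396 and 1911 in H358, 2182 and 1954 in H2009, 5289 and 3907 in the Ishikawa replicates, 3053 in HCC95 and 4132 in BICR31. H2009 had the highest mean, and both of its libraries lay above both of H358. Without division by list size Ishikawa led, at a mean of 4598 called bases.

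The ME1 edge had a split peak in each narrowPeak list. All 4 held 2 peaks there, separated by gaps of 125 and 64 bp in H358 and 202 and 344 bp in H2009. In both H358 lists 1 peak covered the edge, and the gap lay upstream of it. In both H2009 lists the peaks lay on either side of the edge. The higher of the 2 had folds of 4.71 and 5.51 in H358 and 6.46 and 7.20 in H2009. HCC95, Ishikawa and BICR31 each listed 1 peak there, with a fold of 3.61, scores of 327 and 361 and a fold of 4.66. The edge region is 6:84139402-84141933, and the widest of the window, 6:83901774-83904530 (2757 bp), lies beyond the 3′ end and also had a peak in all 8 libraries. RWDD2A is the next gene on the downstream side in the RefSeq order, and which gene the region beyond the 3′ end serves was not measured. Inside the gene, 96.5 kb from the edge, 6:84043258-84044337 was listed in H2009 (folds 6.97 and 6.75), HCC95 (4.0) and BICR31 (5.35), and not in H358 or Ishikawa.

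**Figure D3:**
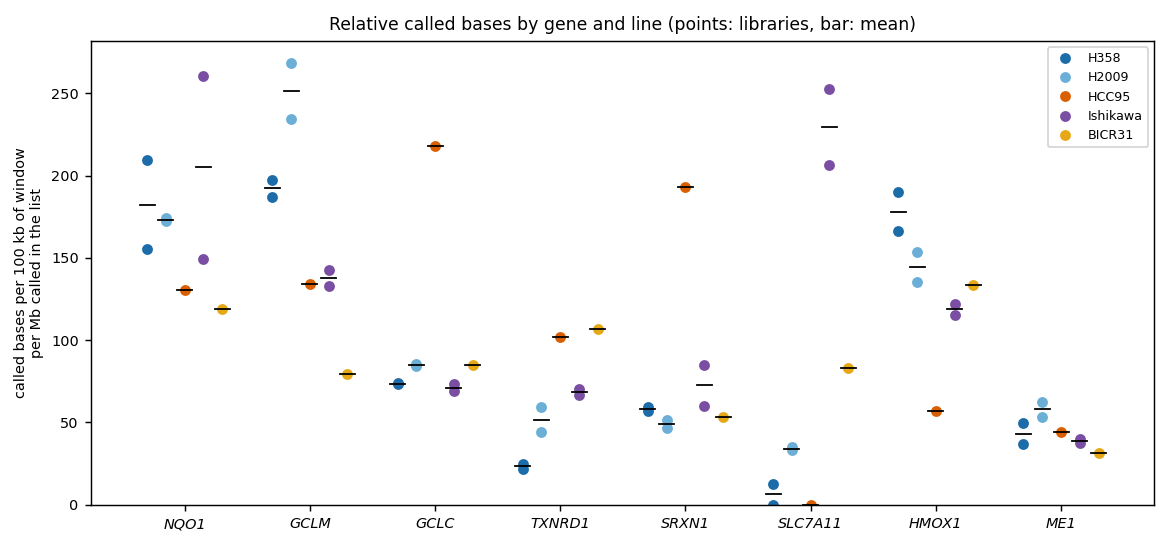
Relative called bases (called bases per 100 kb of window per Mb called in the list) for the 8 genes in the 5 lines; points are libraries and bars are means. Ishikawa stands above the rest at SLC7A11, and HCC95 at GCLC and SRXN1, while its SLC7A11 value is 0.

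No line led at every gene. The highest mean of relative called bases was in H2009 for 2 genes (GCLM and ME1), HCC95 for 2 (GCLC and SRXN1), Ishikawa for 2 (NQO1 and SLC7A11), H358 for 1 (HMOX1) and BICR31 for 1 (TXNRD1). Over the 8 windows together the values were 76.6 ± 5.76 (SD, n = 2) in H358, 90.9 ± 2.30 (SD, n = 2) in H2009, 103 in HCC95, 104 ± 9.45 (SD, n = 2) in Ishikawa and 80.1 in BICR31. Of the 2 squamous lines, HCC95 lay near the top of this range and BICR31 near the bottom. With 1 library in 2 of the lines and a form of file for each type, no test per gene was made, and these orders are descriptions. The lead changed for 3 of the 8 genes in the higher-valued 50% of the lists and for 3 without division by list size.

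The regions near these genes ranged from shared by every library to listed once. A peak in all 8 libraries was found for 14 of the 63 regions (22.2%), beside 12.1% of all 70648 regions. A peak in a single library was found for 27 (42.9%), beside 47.7%. The 14 included 3 each at NQO1 and GCLM, 2 each at GCLC, HMOX1 and ME1, 1 each at TXNRD1 and SRXN1, and none at SLC7A11. Of the 14, 4 lay at the 5′ edges and 10 were among the 55 regions away from them. The windows are placed on genes, while the 70648 regions are not limited to the surroundings of genes. The share near other genes was not measured, and these shares are descriptions with no test. The count of 14 was 9 with a flank of 25 kb, 5 in the higher-valued 50% of each list and 0 where the peaks of every library had to cover 50% of the region.

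Regions of a single line were near their genome-wide shares. BICR31 alone held 13 regions (20.6%), beside 21.9% of all regions, HCC95 alone 6 (9.52%), beside 6.2%, Ishikawa alone 4 (6.35%), beside 5.11%, and H2009 alone 1 (1.59%), beside 1.27%, where lines with 2 libraries needed both. None was specific to H358, beside 1.32%, and none was shared by H358 and H2009 alone, beside 0.497%. HCC95 and BICR31 alone shared 1 region, beside 3.56% of all regions. Ishikawa and BICR31 alone shared 2 (3.17%), beside 1.07%. Other combinations had 1 region each: H358, H2009 and BICR31 (beside 0.831%), H2009, HCC95 and BICR31 (beside 0.558%) and H2009, Ishikawa and BICR31 (beside 0.212%). With counts of 1 or 2, these are named and not read as differences.

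**Figure D4:**
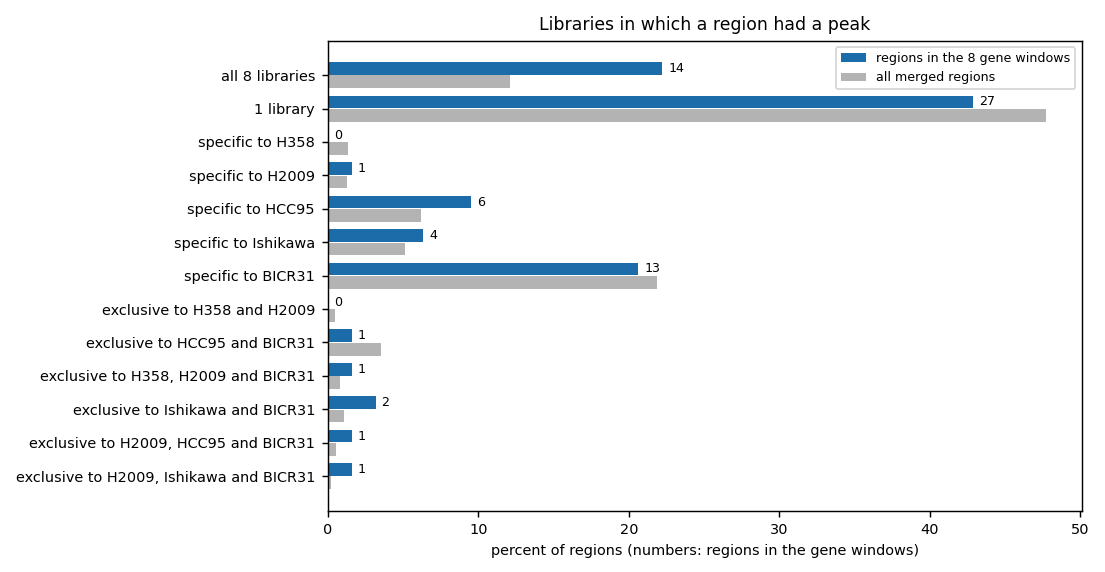
Share of regions by the libraries in which they had a peak, in percent on the horizontal axis, for the 63 regions near the genes and for all 70648 regions. Regions with a peak in all 8 libraries make up 22.2% near the genes and 12.1% of all, a set not limited to the surroundings of genes.

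Libraries of the same line agreed more in these windows than libraries of different lines. Agreement was measured as the Jaccard index, called bases shared divided by called bases in either library, over the 8 windows pooled. It was 0.600 for the H358 replicates, 0.530 for H2009 and 0.630 for Ishikawa. The mean over these 3 pairs was 0.587 and the mean over pairs of different lines 0.297, a difference of 0.289. This was the largest of the 420 ways to place 3 pairs among 8 libraries (exact one-sided permutation p = 0.00238, the smallest the design allows). The p measures the spread between these libraries only, which may be technical. Both libraries of each same-line pair share a form of file, while most pairs of different lines do not. The p therefore cannot tell line from form of file.

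Between the 2 lung adenocarcinoma lines the index came close to the lowest replicate value. H358 and H2009 libraries gave a mean of 0.508, with a range of 0.456 to 0.544 whose top lies above the 0.530 of the H2009 replicates. That mean is below the value of each replicate pair, and only the pairs with H358 replicate 2 lay above 0.530. Within the 4 narrowPeak lists alone the difference between replicates and the other line was 0.0567 (exact one-sided permutation p = 0.333, the smallest 4 lists allow). HCC95 and BICR31 gave 0.377, Ishikawa and BICR31 a mean of 0.338, and H2009 and Ishikawa the lowest mean, 0.191. Form of file and type of line move together in all of these values. The index also cannot reach 1 where 2 libraries call unequal numbers of bases. In the windows the H2009 libraries called 14213 and 14455 bases and the Ishikawa libraries 64987 and 44808. How much of the low index between them comes from breadth was not tested.

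The 4 vector-labelled H2009 lists were short. They listed 1375 to 3250 peaks each, against 26412 and 26887 in the H2009 libraries without a vector label. In the windows they held 8 of their 8900 peaks, beside 250 of 224362 in the 8 lists without a vector label. The Empty list had 1, at the NQO1 edge (16:69761159-69761488, fold 4.13). The list labelled Control, whose peak names carry a tag other than its label, had 5: at -27544 bp from the NQO1 edge (fold 5.61), inside TXNRD1 in the region shared by all 8 (fold 4.15), at the SRXN1 edge (fold 5.15), at the ME1 edge (fold 4.64) and beyond its 3′ end (fold 5.37). The library labelled e3KRAB1 had 2, at the NQO1 edge (fold 4.06) and downstream of GCLM (fold 4.94), and the library labelled e3KRAB2 had 0, while its peak names carry a control tag that goes against that label. All 8 peaks overlapped a peak in both H2009 libraries without a vector label. GCLC, SLC7A11 and HMOX1 had no peak in any of the 4 lists. With 1 library per label and short lists, no comparison between the labels was made.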

How the data were processed

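H3K27ac ChIP-seq used 1 antibody throughout, per the labels' protocols. BWA and hg19 are the aligner and build named in the submitters' processing notes. The aligner's version, the peak caller and its control, and whether replicates were pooled, were not given in the sources used here. Per the column layout, the narrowPeak and broadPeak lists hold the authors' fold enrichment ratio, −log10 p and −log10 q, and a deposited score that is 10 times the −log10 q cut to a whole number. The authors' summit offset in the narrowPeak lists, an other kind of unit, entered no result. The 5-column lists hold a deposited score per peak.

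The genes, windows and lists were chosen with earlier results of these data known. Peaks on chromosomes 1 to 22 and X were kept, which left out 556. They were joined into regions at 1 bp of overlap, and an edge peak lay within 1 kb of the 5′ edge. Strand came from RefSeq, or for SLC7A11 and HMOX1 from general knowledge. Regions named were the one at the edge, the widest of each window, those of the H358 and H2009 pair or the HCC95 and BICR31 pair, and the widest specific to a line with 2 libraries. Other regions, such as those with a peak in all 8, were chosen after their values were seen. No hg19 annotation was used, so exons and introns and the identity of the lines by marker genes were not checked. Alternatives were a flank of 25 or 100 kb, the higher-valued 50% of each list, equal list lengths, an overlap of 50%, 1 form of file alone, the replicate block and each library left out. Python 3.11.15, numpy 2.4.6 and matplotlib 3.10.9 were used, and the scripts were tested on simulated data.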

Additional observations from a re-analysis of the deposited data

How the results depend on the processing

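The agreement of same-line over different-line libraries kept its direction under every alternative run, from 0.0567 to 0.328. It missed the threshold of 0.05 in the narrowPeak lists alone (0.0567, exact one-sided permutation p = 0.333) and with the replicate block, where only pairs of a replicate 1 with a replicate 2 entered (0.280, exact one-sided permutation p = 0.167); both are the smallest p these designs allow. Leaving out 1 library gave 0.238 to 0.328 (exact permutation p = 0.00952 to 0.0286), 60 to 63 regions in the numbered lines, 14 to 15 regions shared by all libraries and 4 genes with an edge peak in all. Using the higher-valued 50% of each list left 31 regions, 5 shared by all 8, 1 gene with a shared edge peak and 5 of 8 genes with the same leading line. A flank of 25 kb left 9 shared regions, and requiring peaks to cover 50% of the region left 0. Without division by list size, 5 genes kept their leading line, and without a replicate 7 to 8 did. Chosen after seeing the data, leaving out HCC95 gave 57 regions and 6 genes with the same leading line, and leaving out BICR31 gave 52 and 7; 14 shared regions and 4 shared edges remained in number under both. Depth is unknown, so a missing peak does not show missing acetylation.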
